A study of Homo sapiens with 6 samples.

Results

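The guanylate-binding protein genes GBP1, GBP2, GBP3, GBP4 and GBP5 were followed in RNA from T47D cells, a human luminal breast cancer line that expresses the estrogen receptor. These 5 genes were taken by symbol from the 27968 genes of the deposited tables. Cells grown in RPMI medium with serum received a control siRNA or an siRNA against HOTAIR-N (a form of HOTAIR, a long noncoding RNA of the HOXC locus) by lipid transfection, and RNA was taken 48 hours later. Each group had 3 libraries, described as independent transfections of this single cell line, and every library came from siRNA-transfected cells. The comparison asks how transcript levels differ after the HOTAIR-N siRNA.

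Guanylate-binding proteins are large GTPases of the dynamin superfamily that are induced by interferons, most strongly by interferon gamma. They bind GTP, form dimers and larger polymers, and coat bacteria, the vacuoles of intracellular pathogens and bacterial lipopolysaccharide, where they recruit caspase-4. GBP1 carries a farnesyl and GBP2 and GBP5 a geranylgeranyl lipid anchor, while GBP3 and GBP4 lack such an anchor site. Their promoters are known to respond to interferons through gamma-activated sites (GAS) and through interferon-stimulated response elements (ISRE), which IRF1 and other IRF factors bind.

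Of the 5 members, GBP1, GBP3 and GBP4 were found in the RefSeq promoter table (build GRCh38.p14, windows of 300 bases that lie mostly before the annotated start), and each of these 3 held an ISRE core. The motif searched was 2 copies of GAAA with any 2 bases between them, on either strand, which reads as 2 copies of TTTC on the reverse. It was present in 3.57% of 35116 promoter windows of the same length. The GAS core TTCNNNGAA, which reads the same on both strands, was present in 7.66% of them. The windows below are shown because they place the ISRE core of 3 members whose transcripts rose. Each holds 46 bases, 5′ to 3′ along the gene, with matches in capitals.

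GBP1, chr1:89065308-89065353, minus strand, bases -145 to -100 from the start: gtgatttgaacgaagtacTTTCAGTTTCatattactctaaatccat
GBP3, chr1:89022837-89022882, minus strand, bases -16 to 30 from the start: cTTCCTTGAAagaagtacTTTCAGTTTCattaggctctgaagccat
GBP4, chr1:89198919-89198964, minus strand, bases -22 to 24 from the start: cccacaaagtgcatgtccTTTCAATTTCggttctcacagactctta

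In GBP1 the ISRE core lay at bases -127 to -118 from the annotated start, whereas in GBP3 it lay at 3 to 12 and in GBP4 at -4 to 6. GBP1 and GBP3 shared a run of 19 bases around it, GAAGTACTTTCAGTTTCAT. The GBP3 window also held a GAS core, the first run of capitals, at -15 to -7, which did not overlap the ISRE core. No exact match to the GAS core pattern was found in the 300-base windows of GBP1 and GBP4, and none to either motif in those of GBP6 and GBP7. Only exact matches to these patterns were searched, so sites that differ from them would be missed. A window without a match is thus not shown to lack such a site. These matches describe letters in a window and show no binding.

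HOTAIR, the targeted gene, had 577, 540 and 581 expected counts with the control siRNA (replicates 1 to 3, the order used throughout) and 206, 185 and 196 with the HOTAIR-N siRNA, and it fell in all 3 transfections (log2 fold change -1.53, SE 0.07, adjusted p = 2.1e-09 by the quasi-likelihood test of edgeR). The gene total does not separate HOTAIR-N from other forms, and HOTAIR overlaps HOXC11 on the opposite strand. The libraries held 31777001 to 36707169 expected counts each. All 10 luminal markers were detected, with a summed level of 9103 to 10323 TPM (an abundance corrected for transcript length and library size) in the control libraries and 8245 to 9111 TPM in the others, a sum carried mostly by the keratin genes KRT8, KRT18 and KRT19. Of the 10 markers 6 fell and 2 rose, where 34.8% of all genes tested were called lower and 36.2% higher. The estrogen and progesterone receptor genes ESR1 and PGR fell to 32.1% and 36.4% of control. TFF1 and CDH1 were the 2 that rose, 3.07-fold and 1.86-fold. Deviations from the group means were correlated between each control library and each HOTAIR-N siRNA library over 10306 genes. Replicate 2 of the control siRNA and replicate 3 of the HOTAIR-N siRNA gave the largest value (r = 0.66, where genes are no independent replicates). This pair was picked for that value, and deviations within a group of 3 are tied to one another. Values without both are given below.

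Of the 5 members, 4 had enough counts to be tested, and all 4 of these were called higher after the HOTAIR-N siRNA. Across all 14919 genes tested, 36.2% were called higher at an adjusted p under 0.05. GBP3 passed the count filter only through the HOTAIR-N siRNA libraries. Summed over the 5 genes, the level rose from 4 ± 0.129 TPM (SD, n = 3) with the control siRNA to 42.7 ± 4.5 TPM (SD, n = 3) with the HOTAIR-N siRNA, a ratio of 10.7. In such bulk RNA, more cells that express a gene cannot be told apart from more RNA per cell.

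GBP1, the best studied member, which starts the coat on bacteria, showed the largest difference among the members tested. It had 76, 62 and 62 expected counts with the control siRNA and 1406, 1254 and 1030 with the HOTAIR-N siRNA. All HOTAIR-N siRNA libraries lay far above all control libraries, and replicate 3 was the lowest of its group. The level per length went from 1.37, 1.17 and 1.13 TPM to 25, 24.9 and 19.5 TPM. The log2 fold change was 4.21 (SE 0.13, 18.5-fold, adjusted p = 1.2e-10 by edgeR's quasi-likelihood test), and GBP1 ranked 21st from the top by log2 fold change among the genes tested.

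GBP2, a geranylgeranylated member that joins GBP1 in coats and, with GBP5, inhibits the protease furin, was the most abundant member in the control libraries. Expected counts of 160, 153 and 163 compared with 1238, 988 and 999 after the HOTAIR-N siRNA. The control libraries were close together and none overlapped the other group. In TPM these were 2.09, 2.11 and 2.15 against 16, 14.2 and 13.7. The log2 fold change of GBP2 was 2.76 (SE 0.08, 6.78-fold, adjusted p = 1.2e-10 by edgeR's quasi-likelihood test).

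GBP4, which is recruited to the coats formed by GBP1, had 59, 57 and 58 expected counts against 435, 409 and 324. Replicate 3 was again the lowest HOTAIR-N siRNA library, and the groups were apart. Its level was 0.51, 0.52 and 0.51 TPM with the control siRNA and 3.72, 3.91 and 2.95 TPM with the HOTAIR-N siRNA. The log2 fold change of 2.75 (SE 0.13, 6.73-fold, adjusted p = 3.5e-09 by edgeR's quasi-likelihood test) was close to that of GBP2.

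GBP3, a close relative of GBP1 in sequence, was low in the control libraries at 7, 7 and 4 expected counts and reached 64, 61 and 61. Unlike GBP1, GBP2 and GBP4, its 3 HOTAIR-N siRNA libraries were nearly equal, at 1.28, 1.27 and 1.31 TPM, and HOTAIR-N siRNA replicate 3 was not the lowest. The control values were 0.15, 0.15 and 0.09 TPM. The log2 fold change was 3.35 (SE 0.24, 10.2-fold, adjusted p = 1.1e-07 by edgeR's quasi-likelihood test), with the widest standard error of the members tested. GBP3 entered this test only through its HOTAIR-N siRNA libraries, so its p is no support apart from the counts. Without a filter on low counts its log2 fold change was 3.33 (SE 0.26).

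GBP5, best known from macrophages, where it has been tied to inflammasome activation, was barely detected and did not pass the count filter. Its counts were 2, 0 and 2 with the control siRNA and 10, 4 and 4 with the HOTAIR-N siRNA. Every HOTAIR-N siRNA library was thus above every control library, but by as little as 2 counts. The summed counts of 4 and 18 gave a ratio of 4.52 with a 95% exact interval of 1.49 to 18.3, which covers counting error only. Without a filter on low counts its log2 fold change was 2.05 (SE 0.78, adjusted p = 0.029 by edgeR's quasi-likelihood test). The related GBP6 and GBP7 had 1 count each in the control group and 2 and 3 in the HOTAIR-N siRNA group, so that no difference was detectable at this depth.

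**Figure D1:**
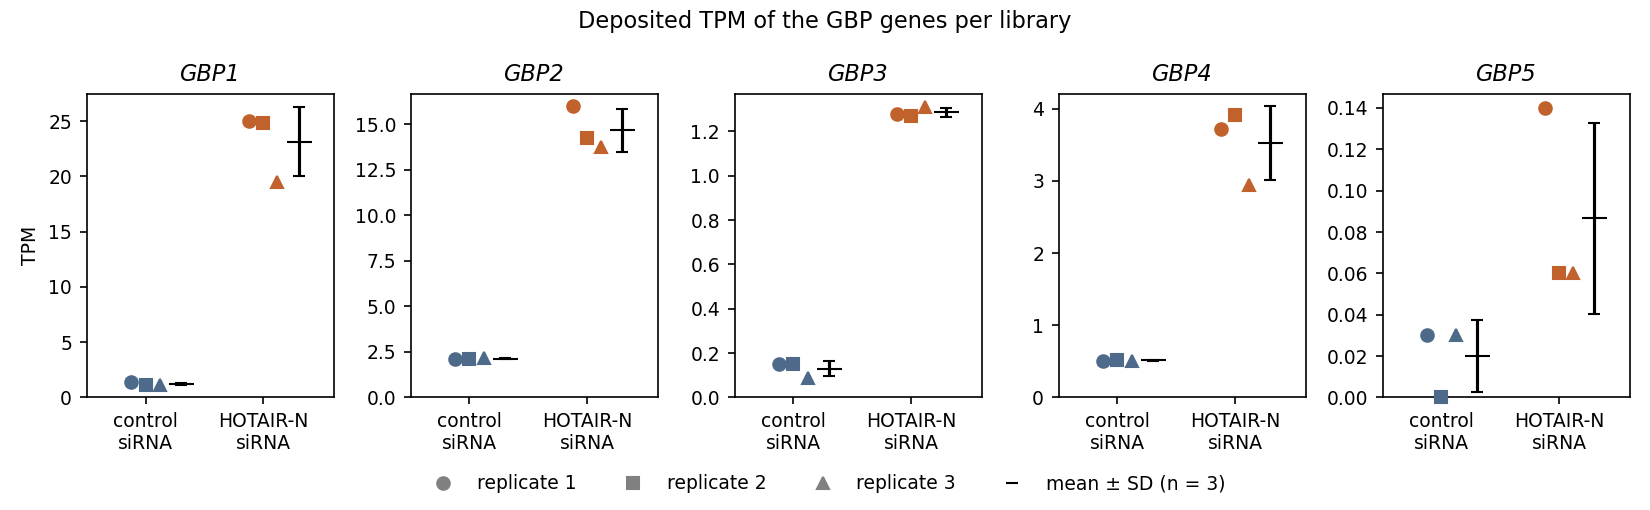
Deposited TPM (y axis, linear from 0, a separate scale for each gene) of GBP1 to GBP5 in each library, by siRNA group, with replicates as symbols and mean ± SD (n = 3) in black. For GBP1 the HOTAIR-N siRNA libraries sit between 19.5 and 25 TPM and the control libraries between 1.13 and 1.37 TPM, and GBP5 stays at or below 0.14 TPM.

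For each of GBP1, GBP2, GBP3 and GBP4 the 3 HOTAIR-N siRNA libraries lay above the 3 control libraries, as they did for 37.5% of all genes tested. With both libraries that stood apart left out, the log2 fold changes of GBP1, GBP2, GBP3 and GBP4 were 4.28, 2.79, 3.49 and 2.86. HOTAIR-N siRNA replicate 3 stood 0.24, 0.1, 0.02 and 0.25 below its group mean on the log2 CPM scale (counts scaled by library size and TMM factors) for GBP1, GBP2, GBP3 and GBP4. Leukocyte markers, which could mark other cells that express these genes, were low throughout. Their summed level was 3.71 to 4.08 TPM in the control libraries and 4.96 to 5.7 TPM in the HOTAIR-N siRNA libraries, and of 12 markers 4 were tested and 1, the lysosomal gene CD68, rose (log2 fold change 0.55, SE 0.13, adjusted p = 0.0022 by edgeR's quasi-likelihood test). PTPRC, the pan-leukocyte marker CD45, had 4 counts in the 3 control libraries together and 1 in the HOTAIR-N siRNA libraries, and NKG7 had 0 in all 6. Endothelial and fibroblast markers summed to 8.86 to 10.2 TPM in the control libraries and 7.73 to 8.99 TPM in the others. COL1A1 carried most of this sum, at means of 9.37 and 8.01 TPM, and its libraries overlapped between the groups. Both members tested out of 8, COL1A1 and COL3A1, fell. COL3A1, at 32, 26 and 26 counts against 6, 8 and 11, passed the count filter only through the control siRNA libraries. Beside the calls in both marker lists, 36.2% of all genes tested were called higher and 34.8% lower. The part of these other-cell markers in the GBP values was not tested.

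The order of the members changed between the groups. Per length, GBP2 led in the control libraries, followed by GBP1, GBP4, GBP3 and GBP5, whereas GBP1 led in the HOTAIR-N siRNA libraries, followed by GBP2, GBP4, GBP3 and GBP5. Neighbours in either order did not overlap over the 3 libraries of a group. The ratio of GBP1 to GBP2 in TPM was 0.656, 0.555 and 0.526 with the control siRNA and 1.56, 1.75 and 1.42 with the HOTAIR-N siRNA.

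As a share of the summed TPM of the 5 genes, GBP1 went from 30.5 ± 2.2% to 54.1 ± 2.08% (SD, n = 3) and GBP2 from 52.9 ± 2.35% to 34.5 ± 2.24% (SD, n = 3). GBP4 went from 12.8 ± 0.474% to 8.25 ± 0.508% (SD, n = 3). For these 3 genes the groups did not overlap, and the two-sided exact permutation test gave p = 0.1, the smallest that 3 libraries against 3 allow (adjusted p = 0.167 over the 5 members). GBP3 held 3.24 ± 0.816% and 3.04 ± 0.387% (SD, n = 3), with an exact permutation p = 0.8. GBP5 held 0.497 ± 0.431% and 0.2 ± 0.091% (SD, n = 3), with an exact permutation p = 0.4. Since no share could pass the exact test with 3 libraries a group, the shifts in the mix are given as measured differences.

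**Figure D2:**
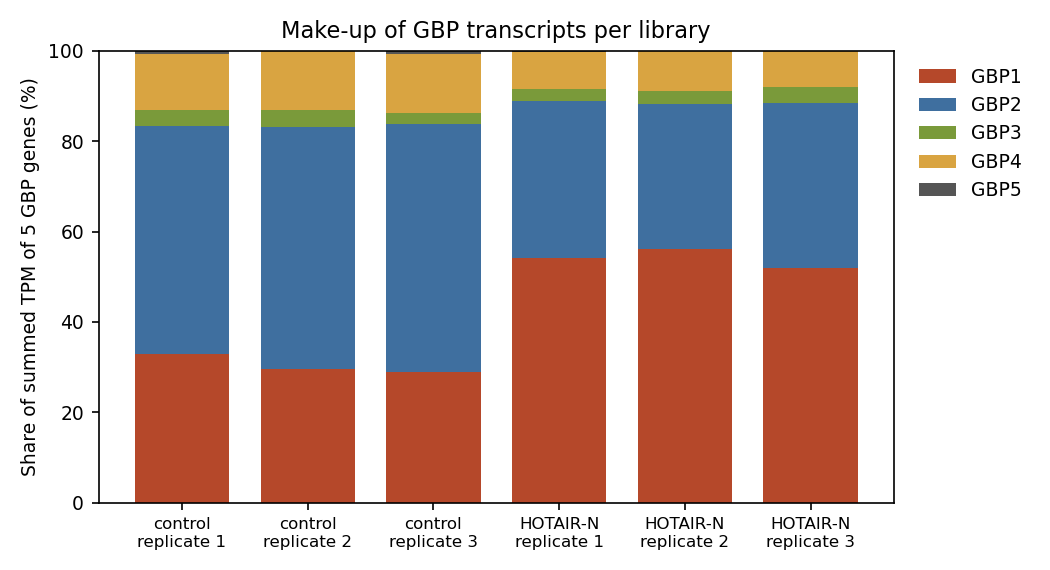
Share of each gene in the summed TPM of the 5 GBP genes (y axis, %), with 1 stacked bar per library. GBP1 takes 28.9 to 33% in the control libraries and 51.9 to 56.1% in the HOTAIR-N siRNA libraries, and GBP2 takes 50.4 to 55% and 32.1 to 36.6%.

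Transcripts were resolved only for GBP3 and GBP5, since GBP1, GBP2 and GBP4 have 1 transcript each in the tables (NM_002053, NM_004120 and NM_052941). Among all 32285 transcripts tested, 32% were called in either direction and 15.4% were called higher, and of the members' 10 transcripts 5 could be tested and 4 were called higher. Both GBP3 transcripts tested passed the count filter only through the HOTAIR-N siRNA libraries. The noncoding form NR_135007 was the most abundant GBP3 transcript in every library but HOTAIR-N siRNA replicate 2, with 7, 4.37 and 3.52 expected counts against 40.2, 19.2 and 41.7. Its log2 fold change was 2.73 (SE 0.54, adjusted p = 0.013 by edgeR's quasi-likelihood test). The call was lost without control replicate 3 or without replicate 1 or 3 of the HOTAIR-N siRNA (adjusted p = 0.052, 0.056 and 0.057), with limma-voom (adjusted p = 0.1) or with the replicate number as a block (adjusted p = 0.069).

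The coding form NM_001319179 had 0, 2.63 and 0 counts against 18.8, 34.8 and 9.79, and its libraries varied widely. Its log2 fold change of 4.26 (SE 1.45) missed the threshold (adjusted p = 0.075 by edgeR's quasi-likelihood test). It passed without control siRNA replicate 2 (adjusted p = 0.033), where both remaining control libraries had 0 counts and the fitted fold change is no bound. NM_001319180 was seen only after the HOTAIR-N siRNA, at 4.94, 7.03 and 9.47 counts against 0 in each control library, too few to be tested. In the test of transcript usage, which called 6.42% of 7465 genes, GBP3 had an adjusted p of 1 (diffSpliceDGE of edgeR), so that no difference in usage was detectable at this depth. All reads of GBP5 were assigned to NM_001134486.

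Reads of this gene family could be shared between members, since GBP1 and GBP3 are similar in sequence. In the GENCODE 29 transcripts paired with the tables' entries, 3.11% of the 50-base stretches of GBP1 also occurred in GBP3, and no 100-base stretch of any member occurred in another. Of the 13 transcripts of GBP1 to GBP7, 8 were paired, and GBP1P1 was not compared. The paired GBP2 and GBP5 transcripts held 2171 and 1962 stretches of 50 bases. The deposited entries are 4132 and 3943 bases long, so part of each was not compared. The deposited counts of GBP2, GBP4 and GBP5 were whole in all 6 libraries within 0.005, and those of GBP1 and GBP3 differed from whole numbers by at most 0.05 and 0.03. GBP4 and GBP5 overlap an antisense gene of the GENCODE annotation that was not analysed here, and GBP2 overlaps GBP7 on the same strand. Whether reads were counted by strand was not given in the sources used here.

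The members lie side by side on chromosome 1 in the order GBP3, GBP1, GBP2, GBP7, GBP4, GBP5, GBP6. Of 14 neighbours listed, which include GBP6, GBP7 and the pseudogene GBP1P1, 9 were tested, 2 rose and 6 fell. The share called in either direction was 88.9%. Among all genes tested 71.1% were called, 36.2% higher and 34.8% lower. The median over the neighbours was -0.38 on the log2 scale, and 0.02 over all genes tested. RBMXL1, an RNA-binding protein gene next to GBP3, had the largest rise among them, from 1228, 1273 and 1254 to 2447, 2314 and 2379 expected counts (log2 fold change 0.93, SE 0.05, adjusted p = 1.7e-08 by edgeR's quasi-likelihood test). It overlaps KYAT3 on the same strand, and KYAT3 fell (log2 fold change -0.41). GTF2B, the general transcription factor TFIIB, rose 1.49-fold. On the other side the volume-regulated anion channel genes LRRC8D and LRRC8C fell to 63.5% and 47.8% of control. GBP1P1, a pseudogene beyond GBP6, had 1, 0 and 0 counts against 4.03, 6 and 8, and did not pass the count filter. Without a filter on low counts its log2 fold change was 3.73 (SE 0.98, adjusted p = 0.002 by edgeR's quasi-likelihood test), and 3 neighbours were then called higher in place of 2. As a pseudogene related to GBP1, it is uncertain how reads were split between GBP1P1 and GBP1.

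Genes that act upstream of the members moved in both directions. No interferon ligand passed the count filter, and of 21 ligands 16 had no count in any library, among them IFNG, whose product is the strongest known inducer of these genes. Together the ligands had 5 to 10 counts per control library and 20 to 36 per HOTAIR-N siRNA library. IFNB1, singled out after its values were seen, had 1, 1 and 0 counts against 9, 3 and 8, and IFNL1 had 3, 4 and 8 against 21, 12 and 7. For IFNL1 the groups overlapped.

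Of 24 receptor, JAK-STAT and IRF genes, 23 were tested, 13 rose and 8 fell, where 36.2% of all genes tested were called higher and 34.8% lower, with a median log2 fold change of 0.56 against 0.02 over all genes tested. SOCS1, among the 13 that rose, passed the count filter only through the HOTAIR-N siRNA libraries. It had 8, 7 and 10 expected counts against 32, 24 and 18, so its call is no support apart from these counts. STAT2 and IRF9, which act together at ISRE sites, rose 2.55-fold and 3.13-fold, and USP18, which dampens interferon receptor signalling, rose 3.67-fold (adjusted p = 7.3e-09, 1.4e-09 and 3.7e-09 by edgeR's quasi-likelihood test). The GBP activator IRF1, named for its known role and with its values seen, rose 2.8-fold. It had 203, 175 and 199 expected counts against 593, 560 and 459, with replicate 3 the lowest HOTAIR-N siRNA library as for GBP1. The kinase gene JAK1 fell to 65.4% of control, and the interferon gamma receptor subunit gene IFNGR2 fell too (log2 fold change -0.56). IFNAR2, IFNLR1, IRF3, PIAS1, PTPN2 and JAK2 fell by 0.27 to 0.41 on the log2 scale. The call of JAK2 was lost without control replicate 2 or without replicate 1 or 2 of the HOTAIR-N siRNA (adjusted p = 0.052, 0.053 and 0.05).

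Genes that act with the members in host defence included some of the largest rises. Of 19 listed, 14 were tested, 8 rose and 1 fell, with a median log2 fold change of 0.23. The 64.3% called in either direction was below the 71.1% of all genes tested. CASP4, the lipopolysaccharide-sensing caspase recruited by GBP coats, had 263, 267 and 242 expected counts against 1923, 1712 and 1601 (6.8-fold, SE 0.08 on the log2 scale, adjusted p = 6.9e-11 by edgeR's quasi-likelihood test). CASP1, the canonical inflammasome caspase, rose 14.3-fold, from 2.17, 2.04 and 1.94 TPM to 35.4, 36.1 and 30.6 TPM. APOL3, which permeabilises the membranes of GBP-coated bacteria, went from 10, 3 and 6 to 335, 284 and 205 counts, and passed the count filter only through the HOTAIR-N siRNA libraries. For CASP4, CASP1 and APOL3, HOTAIR-N siRNA replicate 3 was again the lowest of its group.

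IL18, a cytokine matured by caspase-1, rose 3.31-fold, and here HOTAIR-N siRNA replicate 3 was the highest of its group in TPM, at 70.9 against 63.7 and 67.6. The autophagy gene ATG7 was the member that fell, to 58.9% of control. The inflammasome sensor genes AIM2, NLRP3 and NLRC4 had between 3 and 10 counts each in the control group and between 8 and 12 in the HOTAIR-N siRNA group, and IL1B had 0 in all 6 libraries.

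Enzymes that attach or process the lipid anchors were all expressed, and of 8 tested 2 rose and 4 fell, with a median log2 fold change of -0.18. The share called, 75%, was near the 71.1% of all genes tested. GGPS1, which makes the geranylgeranyl donor, rose 2.38-fold (SE 0.06 on the log2 scale, adjusted p = 1.7e-09 by edgeR's quasi-likelihood test). FNTA, the subunit common to the prenyl transferases, rose 1.37-fold. FNTB, the subunit particular to the farnesyltransferase that modifies GBP1, fell (log2 fold change -0.34, SE 0.07), and ICMT, which methylates the processed end, fell (log2 fold change -0.69, SE 0.04).

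Among 17 other large GTPases of the dynamin superfamily, 15 were tested, 4 rose and 6 fell. The 66.7% called was near the 71.1% of all genes tested. With scaling by library totals alone 7 rose, and over all genes the number called higher went from 5407 to 6480. Their median log2 fold change was -0.09. The interferon-induced antiviral GTPase genes MX1 and MX2 rose 5.32-fold and 6.31-fold. MX2 had 62, 69 and 55 expected counts against 467, 401 and 305. The endocytic and mitochondrial fission dynamins DNM1 and DNM1L rose 2.31-fold and 1.25-fold. DNM2, the ubiquitous dynamin, fell (log2 fold change -0.77, SE 0.06), and so did EHD3, which shapes recycling endosomes (log2 fold change -1.57, SE 0.15).

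**Figure D3:**
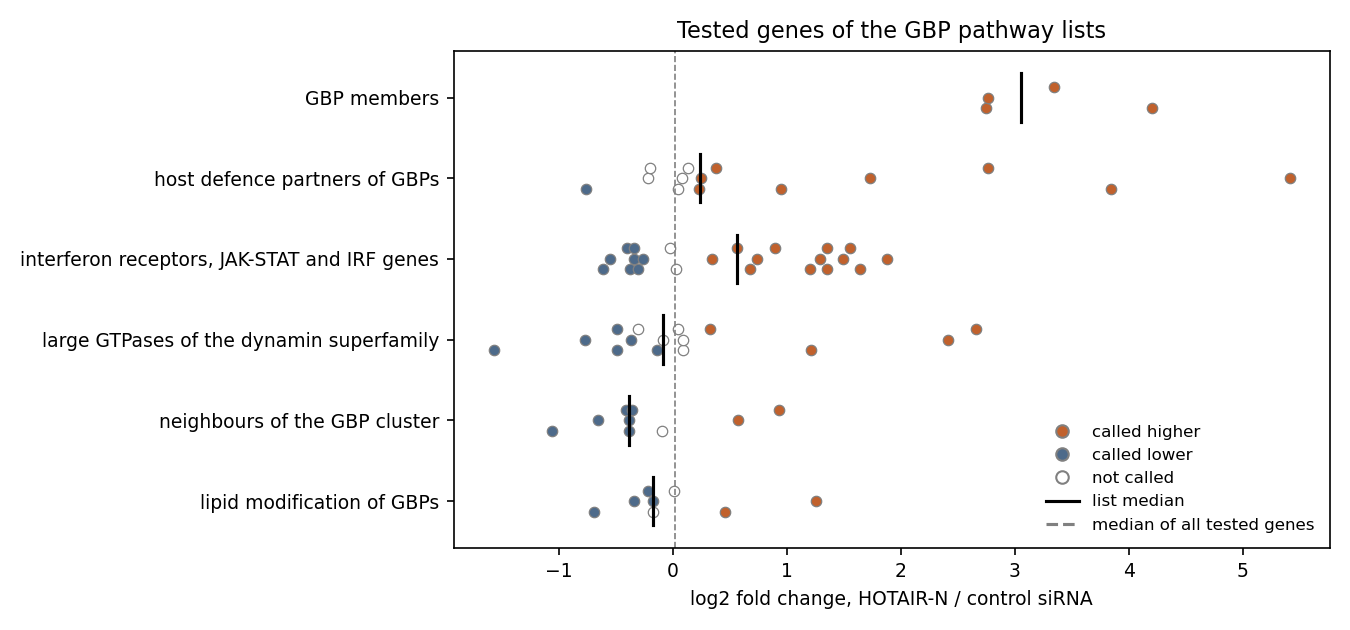
Log2 fold change (x axis) of each tested gene in the GBP members and 5 pathway lists (rows), coloured by the call at an adjusted p under 0.05, with the list median as a bar and the median of all tested genes (0.02) as a dashed line. The GBP members stand between 2.75 and 4.21, whereas the median of the lists ranges from -0.38 for the neighbours to 0.56 for the interferon signalling genes.

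The genes closest to each member over the 6 libraries were named by the smallest Euclidean distance of log2 CPM relative to the control mean, among 12892 expressed candidates. For GBP1 these were IFIT2, an interferon-induced RNA-binding protein gene (distance 0.23, 17.6-fold), and BATF2, an interferon-inducible transcription factor gene (distance 0.37, 17.2-fold). For GBP2 the closest gene was CASP4 (distance 0.2), followed by PIGR, which carries immunoglobulin across epithelia (distance 0.23, 7.41-fold). For GBP4 they were EPSTI1 (distance 0.17, 6.54-fold) and the antiviral gene C19orf66 (distance 0.18, 6.66-fold). For GBP3 they were the collagenase gene MMP13 (distance 0.35, 10.5-fold) and the interferon-induced gene IFI44 (distance 0.38, 7.33-fold). MMP13, like GBP3, was low in the control libraries, at a mean of 0.22 CPM, and passed the count filter only through the HOTAIR-N siRNA libraries. Since each gene was set relative to its control mean, a small distance mostly reflects a similar fold change, so the similar folds follow from the selection. These distances describe likeness in 6 libraries of 1 contrast and were not tested.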

How the data were processed

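Total RNA was depleted of ribosomal RNA and made into stranded libraries, per the labels' protocols. Per the submitters' processing notes, the tools were STAR 2.6.0c and RSEM 1.3.0 with hg19, and settings were not given in the sources used here. The deposited tables hold RSEM expected counts and TPM per gene and transcript and the percent share of each transcript in its gene, per the file headers.

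Expected counts were rounded, filtered with filterByExpr (minimum count 10, minimum total 15), scaled by TMM and tested with the quasi-likelihood test of edgeR 4.0.16 (R 4.3.3) over all genes or all transcripts, with Benjamini-Hochberg adjustment and calls at 0.05. Standard errors were taken as the log2 fold change divided by the square root of F. Likeness used log2 CPM with a prior count of 2. Alternatives were other scalings and filters, DESeq2 1.42.0, limma 3.58.1, a replicate block, stricter calls and leaving out libraries. The labels give replicates 1 to 3 in both groups without a stated pairing, and the design text calls them independent transfections. KYAT3 was matched through an older symbol. Scripts were tested on simulated data.

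The members and gene lists were chosen with earlier results of these data known. Named genes are the members, GBP6, GBP7 and HOTAIR, the 4 genes of each list with the smallest p, called genes that went against their list, and the 2 genes most like each tested member. Any other gene was named with its values seen. The depth per library was 31777001 to 36707169 expected counts, and after TMM scaling 1 CPM stood for 32.9 to 36.4 counts.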

Additional observations from a re-analysis of the deposited data

How the results depend on the processing

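GBP1, GBP2, GBP3 and GBP4 were called higher under all 17 alternatives, with log2 fold changes of 4.14 to 4.31, 2.69 to 2.86, 3.12 to 3.49 and 2.67 to 2.86, and 4 or 5 members were called, the fifth being GBP5 without a filter. As in the main fit, GBP3 passed filters on low counts only through its HOTAIR-N siRNA libraries. With the replicate block 4 members were called, as without it, and 3 transcripts in place of 4. Deviations of same-numbered libraries from their group means had r = 0.26, -0.54 and -0.45 across 10306 genes. Deviations within a group of 3 are tied to one another, so these values cannot decide a pairing. The labels state no pairing, and the numbers were not taken to pair libraries. Over the pathway lists 54 genes were called, and 40 to 59 under the alternatives. Against a 1.2-fold change, 6876 of all genes were called in place of 10605, host defence partners called higher went from 8 to 5, interferon signalling genes called lower from 8 to 4 and lipid modification genes called lower from 4 to 1, which follows from the stricter test, and IFNAR2, IRF3, PTPN2, JAK2, DNM1L and FNTB were not called. With library totals alone, lipid modification genes called lower went from 4 to 2, and the cause was not tested. JAK2 lost its call in 8 of 17 alternatives. As a share of CPM, GBP2 differed by -15.6 and GBP4 by -5.88 percentage points, in place of -18.5 and -4.58, since CPM is not corrected for length. No called direction reversed among the results listed here. Depth limits GBP5, GBP6, GBP7 and the transcripts of GBP3.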
